A study of Gossypium hirsutum with 6 samples.

Results

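A group of 177 genes of upland cotton roots, out of 81166 identifiers measured, was expressed at a moderate level in control roots and stood 2.03 to 7.90 times as high in roots kept with PS-COOH. The members were chosen by these same values. An A or D coded identifier with at least 1 FPKM in 3 or more libraries was called induced when 3 conditions held: its control mean was at least 1 FPKM, its mean log2(FPKM + 1) was higher by at least 1 in the PS-COOH libraries, and its lowest PS-COOH value lay above its highest control value. Members were the induced identifiers with a control mean of 5 to under 200 FPKM and no induced identifier directly next to them in number order. The end of chromosome code D05, from gene number 366400 on, was left out. FPKM is the number of fragments assigned to a gene scaled by gene length and by the depth of the library.

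Gossypium hirsutum is an allotetraploid whose A and D subgenomes come from different ancestors, so that many of its genes exist as an A and a D copy. PS-COOH is the usual abbreviation of carboxyl-modified polystyrene, a plastic whose small particles are used as models of plastic pollution. Roots are the organ of a plant in direct contact with such particles in soil or culture medium. A gene that is already expressed and rises severalfold differs from one that is switched on from near silence, because its product is present under both conditions.

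The control group held 3 root libraries at 0 mg/l PS-COOH and the treated group 3 root libraries at 300 mg/l, all after 9 days. The sources used here do not give cultivar, plant age, particle size or pooling of plants. Nothing in the labels says that libraries of a group came from separate cultures, so the spread between them may be technical. The files give no read counts and no gene names. None of the identifiers matched a RefSeq table of 99454 cotton genes (0 of 81166), so no function or sequence can be attached to a member, and the labelled tissue could not be checked against root markers. Relative depth was read from values under 0.1 FPKM, with control replicate 1 set to 1. It was 0.975 to 1 in the control libraries and 1.048 to 1.104 in the PS-COOH libraries. Between 63090 and 63417 identifiers were above 0 in a control library, and 64403 to 65242 in a PS-COOH library. Both measures were higher in every PS-COOH library than in any control library. Members are named by chromosome code and rank, apart from the member with the highest PS-COOH mean and the one with the largest change.

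Of 42358 identifiers kept, 620 were induced (1.46%). Of these, 374 had a control mean under 5 FPKM, 10 had one of 200 FPKM or more, and 236 lay in the range between. In that range 57 stood next to another induced identifier and 2 more were in the end of D05, which leaves the 177 members. All 177 were also called higher by limma (adjusted p under 0.05), against 15.7% of all identifiers tested, a count that the choice of members fixes.

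The name of doubled, moderately expressed genes holds for most of the members and not for all. Their control means ran from 5.02 to 161 FPKM with a median of 11.2, and their PS-COOH means from 11.2 to 573 FPKM with a median of 30.1. The ratio of the means had a median of 2.46 and a range from 2.03 to 7.90. It was under 2.5 in 93 members, under 3 in 144, between 3 and 4 in 24, and 4 or more in 9. On the log2(FPKM + 1) scale, on which the threshold was set, the median change was 1.22, with quartiles at 1.07 and 1.39. The pseudocount makes the threshold stricter for low genes: a change of 1 needs a ratio of 2.2 at a control mean of 5 FPKM and of 2.005 at 200 FPKM.

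The member with the highest level, Gohir.A04G122100.v2.1, also had the highest control mean. Its control libraries measured 160 (replicate 1), 155 (replicate 2) and 168 FPKM (replicate 3), and its PS-COOH libraries 545, 597 and 576 FPKM in the same order. The groups lay far apart, and the spread within each was small against the distance between them. The mean went from 161 ± 6.36 to 573 ± 26.1 FPKM (SD, n = 3 each), a ratio of 3.56 and a change of 1.83 on the log2(FPKM + 1) scale. It was the only member with a ratio above 3 among the 9 members of highest control mean.

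Gohir.A03G142800.v2.1 had the largest change of the group and one of its lowest control levels. It measured 6.58, 5.14 and 4.55 FPKM in control replicates 1 to 3 and 40.9, 51.8 and 35.7 FPKM in PS-COOH replicates 1 to 3. No PS-COOH value came near a control value, but the PS-COOH libraries differed more among themselves than in most members. The mean went from 5.42 ± 1.04 to 42.8 ± 8.22 FPKM (SD, n = 3 each), a ratio of 7.90 and a change of 2.77 on the log2(FPKM + 1) scale.

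The next largest change belonged to a member on D05. It measured 26.5, 23.4 and 22.1 FPKM in control roots and 135.3, 135.6 and 135.2 FPKM in PS-COOH roots, a change of 2.45 on the log2(FPKM + 1) scale. Its PS-COOH values were almost identical, while its control values were not. The third largest change, 2.40 on that scale, was that of a member on A10. That member stood at 10.3, 10.3 and 10.2 FPKM in control roots and at 62.5, 54.8 and 57.9 FPKM in PS-COOH roots. Here the control values were the close ones. The other 6 members with a ratio of 4 or more carry the codes D05, D08, D12, A05 and, in 2 cases, A11, and their control means ran from 5.80 to 15.5 FPKM.

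At the upper end of the level range the changes differed in size. The member of second highest level, on A05, measured 134, 120 and 137 FPKM in control roots and 256, 280 and 268 FPKM in PS-COOH roots, a ratio of 2.06. The third, on A08, went from 96.7, 87.2 and 94.2 FPKM to 250.9, 250.2 and 250.4 FPKM, a ratio of 2.70 with PS-COOH values that scarcely differed. The fourth, on D11, went from 112, 95.9 and 108 FPKM to 197, 237 and 206 FPKM, a ratio of 2.03. In all 3 members the lowest PS-COOH library stood far above the highest control library. In all, 16 members reached a mean of 100 FPKM in the PS-COOH roots.

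The member at the middle of the ratios, on A07, shows the usual size of the difference. Its control libraries held 50.2, 42.0 and 49.3 FPKM and its PS-COOH libraries 106, 116 and 127 FPKM, a ratio of 2.46. The narrowest separation was that of a member on D01, with 28.2, 27.2 and 19.6 FPKM in control roots and 40.1, 61.9 and 52.5 FPKM in PS-COOH roots. Its highest control value and lowest PS-COOH value were 0.49 apart on the log2(FPKM + 1) scale. It was the only member with a gap under 0.5. In 92 of the 177 members the gap was at least 1, so that each PS-COOH library exceeded each control library by the full threshold. A gap of at least 1 by itself meets the change and overlap conditions of the rule. Outside the induced set, the largest gap in the same control range was 0.917. Every member had to have a gap above 0 by the rule, and 22.0% of all kept identifiers in the same control range had one.

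**Figure D1:**
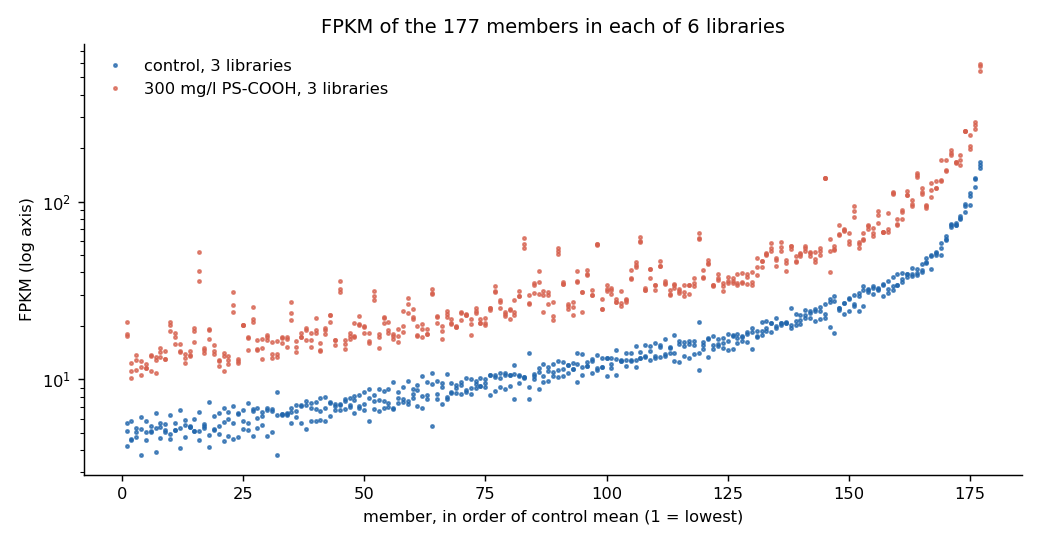
FPKM of each member (log axis) in the 3 control libraries (blue) and the 3 PS-COOH libraries (red), with members in order of control mean along the horizontal axis. The red points lie above the blue ones in each member, as the rule requires, and 9 members with a ratio of 4 or more stand out above the band of the others.

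The members rose in rank as well as in level, which their choice by higher PS-COOH values brings with it. Within a library, the median member ranked 10391 to 10849 of the 42358 kept identifiers in control roots and 3202 to 3309 in PS-COOH roots. Each control library had 7 members among its 1000 highest identifiers, and the PS-COOH libraries had 26, 26 and 28. The median member value was 11.1, 10.8 and 11.2 FPKM in control replicates 1 to 3 and 30.0, 30.9 and 30.0 FPKM in PS-COOH replicates 1 to 3. Identifiers of the same control range that were not induced kept nearly the same median log2(FPKM + 1), 3.56 to 3.57 in control roots and 3.53 to 3.55 in PS-COOH roots. In a whole organ a lower or higher FPKM can come from the number of cells of a type or from the RNA per cell, which cannot be told apart here.

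The 177 members together took a small share of the transcriptome. Their summed FPKM was 0.566 ± 0.00877% of the total in control roots and 1.36 ± 0.0227% in PS-COOH roots (SD, n = 3 each). The sum went from 3185 to 8231 FPKM, a gain of 5046 FPKM. The total over all identifiers had a net gain of 40639 FPKM between the groups, and because other identifiers fell, the members' gain is not a share of it. No single member carried the gain: Gohir.A04G122100.v2.1 made up 8.16% of it and the 10 members with the largest gains 28.1%.

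Members were spread evenly over the levels of the range, as a share of the identifiers there. They were 77 of 9700 kept identifiers with a control mean of 5 to under 10 FPKM (0.794%), 56 of 6492 from 10 to under 20 (0.863%), 34 of 3819 from 20 to under 50 (0.890%), 7 of 936 from 50 to under 100 (0.748%) and 3 of 333 from 100 to under 200 (0.901%). The median ratio of means was 2.56 in the lowest class, 2.37 and 2.29 in the next classes, and 2.51 and 2.06 in the highest classes, with their 7 and 3 members. The threshold itself asks for a larger ratio at low levels. The largest ratio in each class was 7.90, 5.68, 5.64, 2.70 and 3.56 upward. It was taken over fewer members in each higher class, so it shows no trend with level by itself.

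The borders of the group cut through a continuous range of values. The 3 members closest to the change threshold stood at 1.002, 1.002 and 1.003 on the log2(FPKM + 1) scale, on D09, D13 and D12. The closest identifiers outside were at 0.99997, 0.998 and 0.997, on D10, A01 and A06. A further 70 identifiers of the same control range had groups that did not overlap and a change from 0.9 to under 1, beside 55 members with a change from 1 to under 1.1. At the lower level border, control means of 5.02, 5.02 and 5.05 FPKM were inside and 4.98, 4.94 and 4.90 FPKM outside, and 47 dispersed induced identifiers lay between 4 and 5 FPKM. At the upper border there was a wide space, from 161 FPKM inside to 396 FPKM outside.

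**Figure D2:**
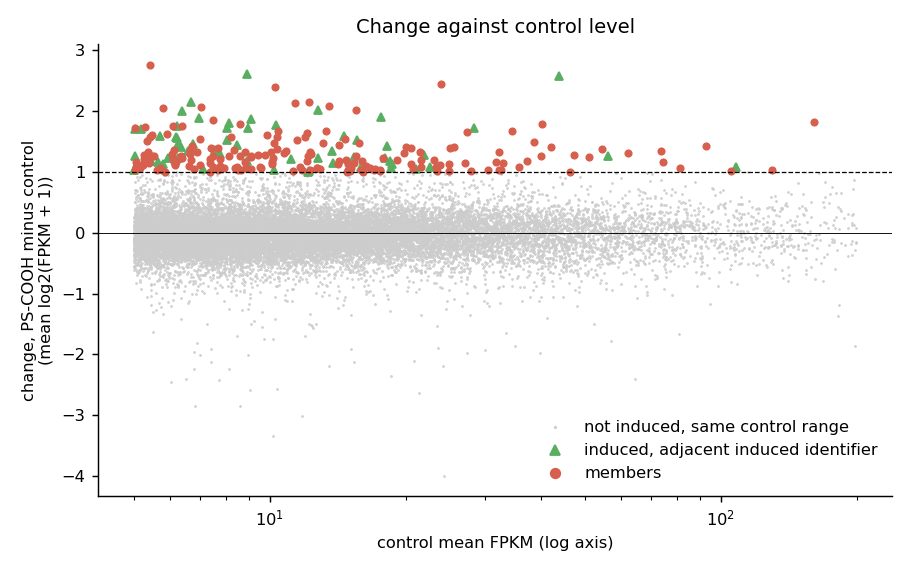
Change between the groups (PS-COOH minus control, mean log2(FPKM + 1)) against the control mean FPKM (log axis) for identifiers of the same control range that were not induced (grey), induced identifiers with an induced neighbour (green triangles) and members (red). The dashed line is the threshold of 1, and both induced groups are densest just above it and extend to 2.77 in the members.

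To see the change in libraries that had no part in choosing the genes, the rule was applied to 2 control and 2 PS-COOH libraries and the difference was read in the pair left out. Over the 9 possible pairs this chose 172 to 197 genes, of which 148 to 161 were among the 177 members. Their median change was 1.21 to 1.24 in the libraries used and 1.13 to 1.28 in the pair left out, on the log2(FPKM + 1) scale. The change was as large in the left-out pair, to within the spread of the pairs. With the smallest value, the pair of control replicate 1 and PS-COOH replicate 1 gave 1.13, and with the largest, control replicate 2 and PS-COOH replicate 2 gave 1.28.

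Single genes held their direction in the left-out pair almost without exception. The held-out difference was above 0 in each chosen gene for 8 of the 9 pairs. For control replicate 1 and PS-COOH replicate 2 it was above 0 in 182 of 183, and the exception was lower by 1.20 on the log2(FPKM + 1) scale. It was at least 0.5 in 95.9% to 100% of the chosen genes, against 3.93% to 6.71% of identifiers of the same control range that were not induced. It reached 1 again in 62.4% to 86.1% of the chosen genes, against 0.242% to 0.496% of those not induced. Identifiers counted as not induced were sorted by the same libraries that chose the genes, which sets part of this contrast. The 9 pairs share libraries and are not independent of each other. Libraries of a group may be technical repeats, so agreement in a left-out pair need not extend to separate cultures.

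**Figure D3:**
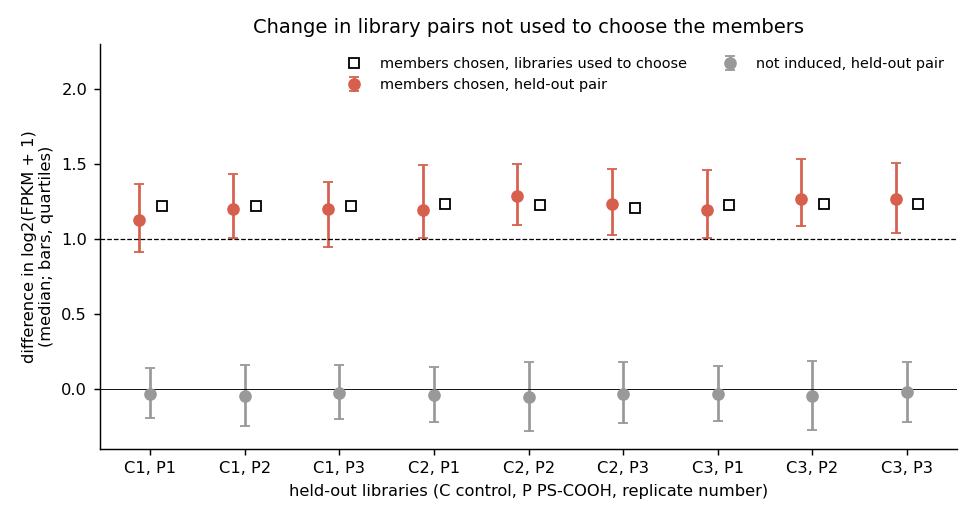
Difference in log2(FPKM + 1) in each of the 9 held-out pairs of 1 control (C) and 1 PS-COOH (P) library, for genes chosen from the other 4 libraries (red, median with quartiles) and for identifiers of the same control range that were not induced (grey). The red medians lie between 1.13 and 1.28, close to the medians in the libraries used to choose (open squares), and the grey medians between -0.05 and -0.02.

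Within the groups, the members varied more between control libraries than most classes of identifiers of their level that were not induced. The median SD of log2(FPKM + 1) over the control libraries was 0.119 in the members and 0.0859 in identifiers of the same control range that were not induced. By control level it was 0.150 against 0.105 from 5 to under 10 FPKM, 0.119 against 0.0826 from 10 to under 20, and 0.0932 against 0.0668 from 20 to under 50. The 7 members from 50 to under 100 FPKM went the other way, at 0.0285 against 0.0548, and the 3 above them stood at 0.0990 against 0.0483. In the middle of the PS-COOH range members were close to other genes of their PS-COOH level, at 0.0711 against 0.0688 from 20 to under 50 FPKM, 0.0570 against 0.0580 from 50 to under 100 and 0.0503 against 0.0522 from 100 to under 200. They were more spread at both ends, at 0.0915 against 0.0835 from 10 to under 20 FPKM and, in 4 members, 0.0647 against 0.0464 from 200 to under 600. The 107 genes of the same control range that were lower by at least 1, without overlap and still at 1 FPKM or more, had a median SD of 0.0992 in control roots and 0.123 in PS-COOH roots. The wider control spread was not particular to the members. The 57 induced identifiers with an induced neighbour had a median SD of 0.139 in control roots. In PS-COOH roots they stood at 0.0759 and the members at 0.0743. The same values chose the members, so these spreads are a description.

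The extra spread in the control libraries did not fall evenly on them. Control replicate 1 held the highest control value in 81 members (45.8%), against 32.9% of identifiers of the same range that were not induced. Its median deviation from the control mean was 0.04 on the log2(FPKM + 1) scale, while replicates 2 and 3 were at -0.02 and -0.01. A member on A11 shows it at its widest, with 21.1, 14.1 and 11.3 FPKM in control replicates 1 to 3 and 62.5, 66.8 and 61.5 FPKM in the PS-COOH libraries. Control replicate 2 held the lowest control value in 73 members (41.2%), against 31.1% of those not induced. Among the PS-COOH libraries, replicate 2 held the highest value in 75 members (42.4%), against 29.3% of those not induced. The 57 induced identifiers with an induced neighbour had control replicate 1 highest in 40.4%, replicate 2 in 36.8% and replicate 3 in 22.8%.

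Members were found on each of the 26 chromosome codes. There were 82 with an A code and 95 with a D code, which is 0.778% of the 10543 A coded and 0.885% of the 10737 D coded identifiers in the control range. The A and D members resembled each other, with median ratios of 2.45 and 2.48 and median control means of 10.4 and 11.6 FPKM. D11 held the most members, 17 of 1124 identifiers in the range (1.51%), with control means from 5.16 to 105 FPKM and ratios from 2.03 to 3.95. A05 followed by count, with 12 of 1348 (0.890%), and D01 by share, with 9 of 737 (1.22%). A06 held 1 of 672 (0.149%) and D07 held 2 of 758 (0.264%). The A06 member went from 19.4, 14.8 and 18.5 FPKM to 34.0, 40.0 and 35.2 FPKM, near the lower limit of the change.

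The rule barred directly adjacent induced identifiers, yet members had one somewhat closer in number order than identifiers outside the induced set. The nearest other induced identifier was a median of 26 places away and at most 218. It was 2 places away in 8 members, within 3 in 19 (10.7%) and within 5 in 23 (13.0%). Among identifiers that were neither induced nor next to an induced one, the median was 29 places. Of these, 5.04% had an induced identifier within 3 places and 9.78% within 5. Within 20 places the shares were 42.9% and 38.3%. An identifier under the filter could lie between neighbours, and when adjacency was read over all A and D coded identifiers, 192 genes qualified, among them all 177 members.

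The identifiers directly next to the members tended to be higher in PS-COOH roots as well, although none was itself induced. There were 352 of them, with a median control level of 4.91 FPKM against 5.12 FPKM in all kept identifiers that were not induced. Of the 352, limma called 89 higher (25.3%, adjusted p under 0.05), against 15.2% of the 41738 kept identifiers that were not induced. It called 56 lower (15.9%), against 15.4%. By 0.5 or more on the log2(FPKM + 1) scale, 53 were higher (15.1%), against 6.41%, and 19 were lower (5.40%), against 4.27%. In all, 60 members had 1 neighbour called higher, 15 had both and 102 had neither.

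This lean was largest at the directly adjacent place. Leaving induced identifiers out throughout, 17.2% of those 2 places from the nearest member were called higher and 18.0% of those 3 places away. At 4 to 10 places the share ran from 10.7% to 16.0%, around the 15.2% of all identifiers that were not induced. The share called lower moved between 13.2% and 18.6% over the 10 places with no such start. Next to the 57 induced identifiers with an induced neighbour, 14 of 50 that were not induced were called higher (28.0%). The sources used here do not say whether fragments were counted by strand or how overlapping genes were treated, and the part of either in this lean was not tested.

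**Figure D4:**
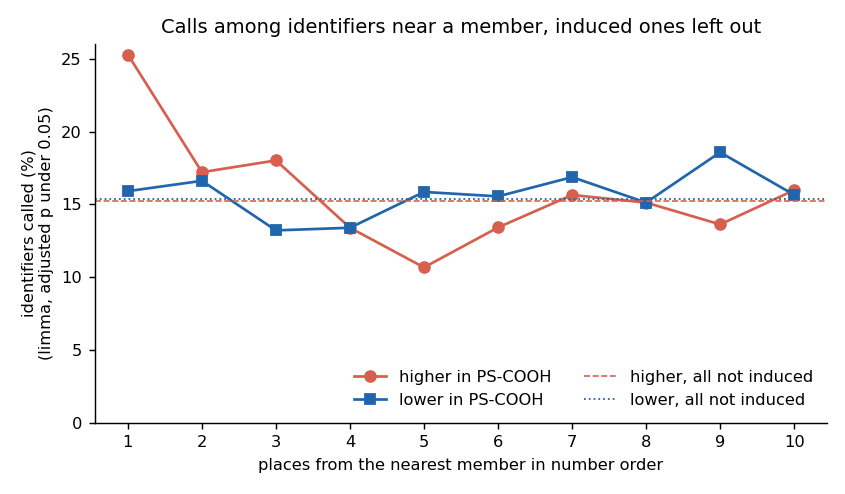
Share of identifiers called higher (red) or lower (blue) by limma (adjusted p under 0.05) against the number of places to the nearest member, with induced identifiers left out. The dashed and dotted lines are the shares among all kept identifiers that were not induced, and the red line starts at 25.3% at 1 place and is at 17.2% at 2 places.

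A few neighbours changed in the direction opposite to their member. Of the 352, 5 were lower by at least 1 on the log2(FPKM + 1) scale (1.42%, against 0.513% of all not induced), and limma called each of them lower. The largest of these was on A12, with 29.7, 29.0 and 23.3 FPKM in control roots and 5.95, 6.60 and 6.01 FPKM in PS-COOH roots. The others, on A06, A13, D02 and D06, had control means of 3.58 to 6.61 FPKM. On the other side, 3 neighbours were higher by at least 1 (0.852%, against 0.429% of all not induced). All 3 had been kept out of the induced set by a control mean under 1 FPKM. The highest of them, on D10, had a mean of 5.56 FPKM in the PS-COOH libraries.

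Induced identifiers were also found at like places on the other subgenome. The place of an identifier was taken as its rank among the kept identifiers of its code, in percent of the whole, and compared with the induced identifiers of the code with the same number in the other subgenome. Of the 177 members, 29 had an induced identifier within 0.2% of their place there (16.4%), which is about 3 places, against 8.62% of the identifiers of the same control range that were not induced. Within 0.5% the shares were 32.2% and 19.2%, within 1% 45.2% and 34.5%, and within 2% 71.2% and 56.2%. Within 5% they were 87.6% and 85.5%. The excess was thus not limited to the closest places. Without the codes 02, 03, 04 and 05, among which cotton chromosomes have exchanged arms, the shares within 0.2% were 16.8% and 8.75%. With all codes, the 57 induced identifiers with an induced neighbour had 28.1% within 0.2% and 59.6% within 2%.

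Some of these matched places held members on both sides, in 6 different pairs. On A13, a member at 97.0% of the order went from a mean of 10.4 to 35.3 FPKM. Its match on D13, a member at 96.8%, went from 6.10 to 22.8 FPKM, and the ratios were 3.39 and 3.74. This match did not hold in reverse, because the D13 member lay closer to another induced A13 identifier, at 96.7%. That identifier was no member and went from a mean of 2.99 to 15.8 FPKM. On A07 and D07, near 92%, the means went from 8.19 to 26.3 FPKM and from 10.2 to 24.9 FPKM. The sizes were not always alike: near 77% of A05 and D05 a member at 130 FPKM reached 268 FPKM, and its counterpart at 12.2 FPKM reached 57.4 FPKM, with ratios of 2.06 and 4.70. In the other 18 members with a match, the identifier on the other side was induced but was no member, most often because its control mean was under 5 FPKM. The table does not give which A and D identifiers are copies of each other, so a like place does not show that they are.

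**Figure D5:**
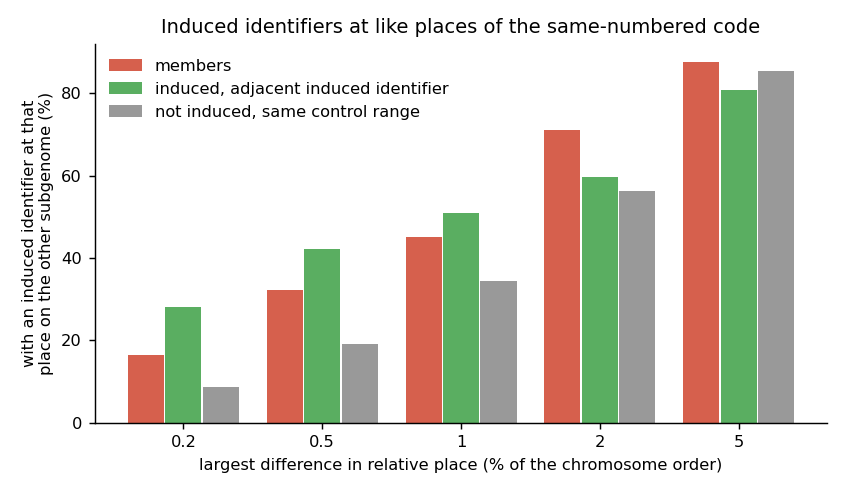
Share of members (red), of induced identifiers with an induced neighbour (green) and of identifiers of the same control range that were not induced (grey) with an induced identifier at a like place of the same-numbered code in the other subgenome, for 5 limits on the difference in place. Members are at 16.4% and identifiers not induced at 8.62% at the closest limit, and the groups come together at 5%.

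The form of the gene number was the last feature that the rule did not use. Most numbers in the table are multiples of 100, and 18 members had another number (10.2%), against 7.31% of identifiers in the same control range that were not induced. Among induced identifiers with an induced neighbour it was 13 of 57 (22.8%). Of the 9 members with a ratio of 4 or more, 3 had such a number.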

How the data were processed

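The authors deposited 1 table of FPKM values for 6 root libraries. The submitters' processing notes list HISAT2 and StringTie and give neither version nor role; for genome build, annotation and multi-mapping reads, nothing is given in the sources used here. Groups were taken from the library titles. A limma moderated test (limma 3.58.1, R 4.3.3) was run on log2(FPKM + 1) over 45258 identifiers with at least 1 FPKM in 3 libraries, with an abundance trend and Benjamini-Hochberg adjustment, and was tested on simulated data. It served as background and for identifiers that the rule did not choose. The members were chosen by measured values, with earlier results of these data known, so they carry no test. The order follows gene numbers within chromosome codes. The fixed rule for names allowed 2 identifiers, since none could be annotated. No library was a copy of another (at most 1 identical value above 0). Tables were made with pandas 2.3.3, figures with matplotlib 3.10.9.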

Additional observations from a re-analysis of the deposited data

How the results depend on the processing

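The group held 154 to 197 genes under another pseudocount, scaling, adjacency or ratio rule, 154 to 177 of them members, and 176 to 184 when each library was left out, 152 (without control replicate 2) to 169 of them members. The median change of 1.22 became 1.30 and 1.27 at pseudocounts of 0.1 and 0.5, and 1.30 as the log2 ratio of means with no pseudocount, because the pseudocount shrinks low genes; in the class of 5 to under 10 FPKM that ratio gave 1.36 against 1.24. Leaving out each library gave 1.21 to 1.24. The gain in share of summed FPKM was 0.798 percentage points, 0.825 over kept A or D coded identifiers only, since that total is smaller, and 0.785 to 0.806 with each library left out. Over all identifiers, 7117 were called higher and 6825 lower, with 5599 to 6620 and 4891 to 6199 when a library was left out. With a replicate block these counts were 6687 and 6014. Same-numbered libraries correlated at -0.073, -0.061 and -0.0073 after removing group means. The labels do not say whether the numbers pair libraries, and so few libraries cannot settle it. The median change of the members, 1.22, is the same with the block because the groups are of equal size. The change ran from 1.71 to 1.86 for Gohir.A04G122100.v2.1 and from 2.62 to 2.96 for Gohir.A03G142800.v2.1 over the limma alternatives. The choice of these 2 members by their values fixes their calls and direction, so neither is a check. The share of neighbours called higher was 24.4% at a pseudocount of 0.1, 24.8% for numbers that are multiples of 100 and 21.3% for the nearest 2 on each side. The profile by place, the like places on the other subgenome and the number form were added after seeing the data. Only relative depth could be read, which limits what low values can show.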
